A study of Mus musculus with 8 samples.

Results

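The broadest open chromatin regions of mouse DN3 thymocytes were described from ATAC-seq, an assay in which a transposase inserts adapters into accessible DNA. Peaks of 4 libraries were merged wherever they shared at least 1 bp, and a merged region on chromosomes 1 to 19 was kept if all 4 libraries had a peak in it and it was at least 3000 bp wide. This gave 407 broad regions of 3 to 20 kb, and 2 regions over 20 kb that were set apart, of 100024 autosomal regions found in all 4 libraries and 176413 merged regions in all. The broad regions were 0.407% of the regions found in all 4 libraries and held 2.00% of their length, or 1.54 Mb. The members were thus chosen by their width and by presence in every list, which are given as a description. They are wide as the union of 4 lists, and single lists often cover less of them.

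DN3 cells are thymocytes without CD4 or CD8 at the stage at which the T-cell receptor beta chain is selected. All libraries came from C57BL/6 mice. In 2 of them both copies of the Notch-Myc enhancer (N-Me), a distal element of the proto-oncogene Myc, were mutated at GATA sites 1 and 2 (mutant libraries). The other 2 had a wild-type enhancer (wild-type libraries), and the 4 leukaemia samples of the series were not analysed here. The labels give neither the age of the mice nor whether replicates came from separate animals, so p-values measure only the spread between these libraries. All 10 T-lineage markers examined, among them Cd3e, Ptcra, Rag1 and Thy1, had a region of all 4 libraries within 1 kb of an end of the gene, against 69.6% of all protein-coding genes. The share was 90% for progenitor, 87.5% for NK and innate, and 75% for B cell markers. It was 66.7% for thymic stroma, 62.5% for myeloid and 33.3% for erythroid markers. High shares were thus not particular to T-lineage markers.

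Open chromatin at an active promoter is usually a short stretch freed of nucleosomes around the transcription start. Wider stretches are known from CpG islands, from genes that define a cell's identity and from clusters of enhancers, where several bound elements lie side by side. Very wide peaks can also arise over repeated sequence, such as ribosomal RNA genes or satellite DNA, when an assembly holds fewer copies than the genome.

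The promoters of 6 genes of T-cell development show the sequence that lies under the broad regions. The first 5 had the widest broad regions among the T-lineage transcription factors and Notch genes, and Cd3e is shown because its promoter holds few CpG dinucleotides. Each sequence runs 5′ to 3′ on the minus strand, from 250 bases before to 50 bases after a RefSeq start (GRCm38.p6). Capitals mark CpG dinucleotides. Where a gene had several starts inside its region, the start with the most CpG is shown.
Myb promoter, chr10:21160935-21161234: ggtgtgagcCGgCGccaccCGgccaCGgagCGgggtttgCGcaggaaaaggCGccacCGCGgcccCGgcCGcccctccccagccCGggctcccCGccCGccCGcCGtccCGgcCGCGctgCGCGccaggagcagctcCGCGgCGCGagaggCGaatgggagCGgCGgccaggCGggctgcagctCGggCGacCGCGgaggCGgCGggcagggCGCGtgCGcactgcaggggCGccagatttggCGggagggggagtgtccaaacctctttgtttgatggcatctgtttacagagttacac
Gfi1 promoter, chr5:107725756-107726055: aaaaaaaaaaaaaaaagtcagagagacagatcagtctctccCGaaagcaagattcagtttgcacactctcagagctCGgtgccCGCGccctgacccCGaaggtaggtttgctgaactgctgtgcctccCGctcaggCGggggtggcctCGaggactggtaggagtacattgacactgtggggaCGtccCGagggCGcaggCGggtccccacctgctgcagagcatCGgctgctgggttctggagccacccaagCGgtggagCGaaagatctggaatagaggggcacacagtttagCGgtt
Tcf7 promoter, chr11:52282965-52283264: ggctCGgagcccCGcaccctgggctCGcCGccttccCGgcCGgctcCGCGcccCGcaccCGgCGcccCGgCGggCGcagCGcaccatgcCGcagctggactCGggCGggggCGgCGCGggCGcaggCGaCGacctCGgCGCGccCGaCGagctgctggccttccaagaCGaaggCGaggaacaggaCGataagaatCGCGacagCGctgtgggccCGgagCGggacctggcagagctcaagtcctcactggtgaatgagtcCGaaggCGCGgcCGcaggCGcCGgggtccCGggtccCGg
Gata3 promoter, chr2:9878551-9878850: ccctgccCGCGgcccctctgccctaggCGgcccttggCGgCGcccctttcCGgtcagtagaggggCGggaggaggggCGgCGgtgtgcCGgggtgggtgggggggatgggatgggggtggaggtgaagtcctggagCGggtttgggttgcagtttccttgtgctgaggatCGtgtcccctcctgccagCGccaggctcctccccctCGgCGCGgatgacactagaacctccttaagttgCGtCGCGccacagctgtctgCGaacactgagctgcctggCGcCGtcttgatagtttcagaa
Notch1 promoter, chr2:26503773-26504072: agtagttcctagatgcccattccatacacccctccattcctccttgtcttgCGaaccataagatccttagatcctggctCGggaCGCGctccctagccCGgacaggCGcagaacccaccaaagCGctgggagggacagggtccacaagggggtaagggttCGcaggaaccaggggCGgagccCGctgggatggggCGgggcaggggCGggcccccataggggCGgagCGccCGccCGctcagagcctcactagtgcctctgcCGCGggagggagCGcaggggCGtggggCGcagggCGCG
Cd3e promoter, chr9:45009562-45009861: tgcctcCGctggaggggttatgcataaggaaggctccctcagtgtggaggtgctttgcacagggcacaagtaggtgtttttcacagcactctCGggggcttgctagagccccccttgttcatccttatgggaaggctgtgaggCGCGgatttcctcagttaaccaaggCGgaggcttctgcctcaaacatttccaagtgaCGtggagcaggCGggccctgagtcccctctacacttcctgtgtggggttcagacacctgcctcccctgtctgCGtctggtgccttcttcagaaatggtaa
The Myb promoter held 40 CpG dinucleotides in these 300 bases and the Tcf7 promoter 45. Their ratios of observed to expected CpG were 0.95 and 1.03. Notch1 held 23, Gata3 22 and Gfi1 16. The other start of Tcf7 in its region held 17 (ratio 0.55), and that of Gfi1 held 10 (ratio 0.41). From its first ATG to its last base, the printed Tcf7 stretch reads as an open reading frame without a stop. Its CpG count thus includes bases that read as coding sequence. Cd3e held 8 and had a ratio of 0.33.

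CpG-rich promoters were the rule at broad regions, but not more so than at narrower ones. Of 254 promoters inside broad regions (186 genes), 197 (77.6%) had an observed over expected CpG ratio of at least 0.6, with a median GC content of 66% and a median of 26 CpG in 300 bases. The share was 79.4% for promoters in regions of 2 to 3 kb and 79.2% in regions of 1 to 2 kb. It was 51.5% in regions under 1 kb and 7.34% where no region was found in all 4 libraries. The letters of 9 motifs, none containing another, were searched on both strands of the same 300 bases. The GC box (GGGCGG) was present in 74.8% of promoters in broad regions, 73.5% in regions of 2 to 3 kb, 68.8% in regions of 1 to 2 kb and 47.0% of all 20084 promoters, of which 7547 lay in no region of all 4 libraries. Broad regions thus differed little in GC boxes from regions of 2 to 3 kb. The ETS motif (CCGGAAG) was present in 9.45% of promoters in broad regions, 13.1% at 2 to 3 kb, 19.8% at 1 to 2 kb and 11.9% of all promoters. The motif of RBPJ, the DNA-binding partner of Notch (letters TGGGAA), was present in 15.4% in broad regions, 19.7% at 2 to 3 kb and 24.1% of all. The motif of GATA factors (letters AGATAA) was present in 4.72% in broad regions, 4.14% at 2 to 3 kb and 9.57% of all, and the RUNX motif (letters TGTGGTT) in 3.54%, 2.88% and 4.77%. In the same order, the CCAAT box (letters CCAAT) was present in 29.5%, 33.4% and 38.1%, the TATA box (letters TATAAA) in 6.69%, 5.87% and 12.7%, the AP-1 motif (letters TGANTCA) in 2.76%, 3.57% and 7.06%, and the cyclic AMP response element (letters TGACGTCA) in 0.787%, 2.42% and 2.3%. In the promoters printed above, GC boxes were counted where they shared no bases with each other. By this count Myb, Tcf7 and Gata3 held 2 GC boxes each and Notch1 held 5, while Gfi1 and Cd3e held none.

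Most broad regions were only a little wider than the limit. Their median width was 3424 bp, the quartiles were 3189 and 3893 bp, and the widest, inside Ttc34, spanned 11332 bp. Of the 407, 87 reached 4 kb, 37 reached 5 kb and 12 reached 7 kb. Just inside the limit lay regions at the end of Sox21 (3001 bp), inside Mapkapk3 (3005 bp) and at Ly6e (3015 bp). Just outside it, at 2998 bp each, lay the regions at Trp53 and Wrap53, at Clcn2 and Polr2h, and inside a gene at chr8:107502893-107505890.

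The 2 regions over 20 kb lay on chromosomes 8 and 9. The region at chr8:123537385-123624097 spanned 86713 bp beside the end of Gas8 and overlapped 51 annotated genes, of which 48 were ribosomal RNA genes, 41 of them copies of 5S rRNA. Its peak covered 86684 and 86649 bp in the mutant libraries, and 86690 and 86700 bp in the wild-type libraries. The region at chr9:2999139-3038826 spanned 39688 bp, held the microRNA gene Mir101c and lay 296 kb from the nearest end of a protein-coding gene, Alkbh8. Here the peak covered 39088 and 38818 bp in the mutant libraries, and 38487 and 38220 bp in the wild-type libraries. Each of the 4 lists had a single unbroken peak at both places, so these were not assembled by merging.

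Broad regions lay mainly at the ends of genes, as did regions of 2 to 3 kb. Of the 407, 224 (55.0%, exact 95% interval 50.1 to 59.9, counting error only) had a protein-coding gene ending or beginning within 1 kb. A further 108 (26.5%) lay inside a protein-coding gene away from its ends and 75 (18.4%) outside protein-coding genes. These are called inside and outside genes throughout, and some regions outside genes overlapped annotated genes of other kinds. The share at gene ends was 52.3% for regions of 2 to 3 kb, 36.7% for 1 to 2 kb and 8.12% under 1 kb. By the annotated transcription start, which the gene table without strand does not give but the promoter table does, 173 broad regions (42.5%) held a start, against 42.6% of regions of 2 to 3 kb. Of the broad regions with no gene end, 17 still held an annotated start inside a gene, among them Gata3, Arid1a, Ptch1 and Sin3a. An end of a microRNA gene lay at 6 broad regions, among them those of Mir191 and Mir425 and of Mir328.

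**Figure D1:**
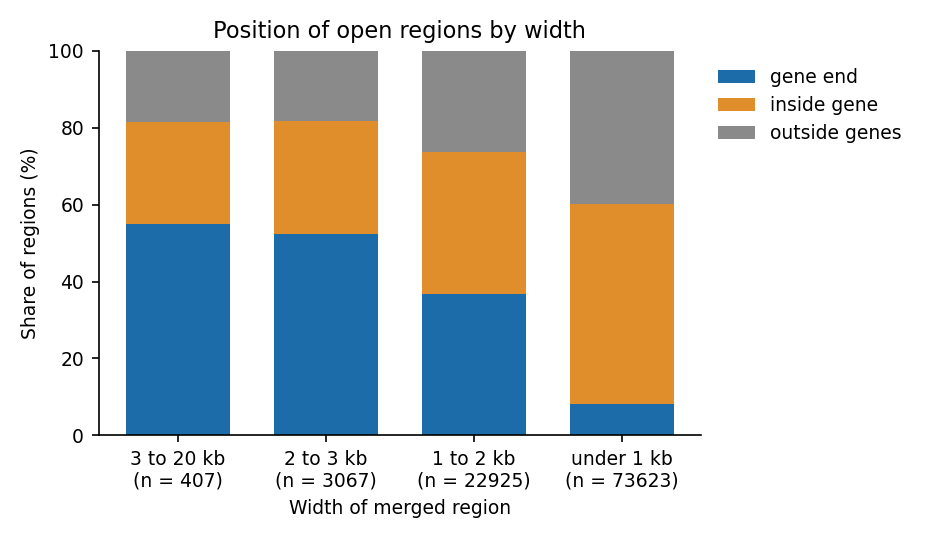
Percent of regions (y axis) at a protein-coding gene end, inside a protein-coding gene or outside such genes, by width class (x axis, wide to narrow). Autosomal regions found in all 4 libraries are shown. The gene-end share was 8.12% under 1 kb, 36.7% at 1 to 2 kb, 52.3% at 2 to 3 kb and 55.0% for broad regions.

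The share at gene ends did not go on growing with width. Among the 87 regions of 4 to 20 kb, 26 (29.9%) were at a gene end, against 198 of 320 (61.9%) at 3 to 4 kb. The widest gene-end region, at the predicted gene Gm36079, spanned 5387 bp, while regions inside genes reached 11332 bp and those outside genes 10080 bp. None of the 15 widest regions was at a gene end. They lay inside Ttc34, Ahnak2, Ulk4, Tmem267, Snx9 and Pfkp, and nearest to Olfr161, Galr1, Gm45988, 1700008P02Rik, Qrfprl, Scaf8 (2 regions), 9230019H11Rik and Esp38. The Esp38 region overlapped a pseudogene of 18S ribosomal RNA (Rn18s-rs5).

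Where a broad region held exactly 1 annotated start, it reached further into the gene than before it. Over 122 such regions the median was 1251 bp upstream of the start and 2224.5 bp downstream, and 86 (70.5%) were longer downstream. The share was 74.4% of 984 regions of 2 to 3 kb, so this lean was not confined to broad regions. At Notch1, the receptor that drives early T-cell development, 538 bp lay upstream and 3062 bp downstream. At Myb, a transcription factor of haematopoietic progenitors and thymocytes, 948 bp lay upstream and 2986 bp downstream. At Mycn, a relative of Myc, the extents were 1143 and 3679 bp. The opposite lean was found at Cd3e, with 2618 bp upstream and 606 bp downstream, at Foxp1, with 2642 and 564 bp, and at Cdk6, with 3092 and 894 bp.

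Genes of early T-cell development were among the members, transcription factors foremost. Of 20661 autosomal protein-coding genes, 263 (percent called 1.27%) had an end within 1 kb of a broad region, and the median of the widest region at a gene's end was 1359 bp. Of 24 genes listed as T-lineage transcription factors 8 had one (Tcf7, Myb, Gfi1, Satb1, Tox, Zeb1, Foxp1 and Zfp36l2, which encodes an RNA-binding protein). The list's median was 2224 bp. Gata3 joined these 8 by an inner start, which makes 9, beside 282 genes (1.36%) by end or start. The lists were written with earlier results of these data known, and no test was made of them. Because a gene's end can lie at its 3′ side, the counts hold the gene and not its promoter alone.

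Tcf7 encodes TCF-1, which commits progenitors to the T lineage. Its region at chr11:52280822-52284671 spanned 3850 bp. Peaks covered 3808 and 3807 bp of it in the mutant libraries, and 2830 and 2607 bp in the wild-type libraries. The groups did not overlap, and the mutant lists had 1 peak each where the wild-type lists had 3 and 2. Both mutant libraries were likewise covered further at 61.2% of broad gene-end regions and 51.1% of all broad regions. The share was 38.7% of all regions found in all 4 libraries. Mutant lists also had fewer peaks per broad region on average. A separation in this direction, here or at the genes below, is thus not particular to the gene. The inner Gata3 region (chr2:9876170-9879949, 3780 bp) holds a start of the factor that TCF-1 and Notch induce in early T cells. It was covered over 3254 and 3111 bp in the mutant libraries, and 2183 and 2230 bp in the wild-type libraries, again without overlap. The region at the outer end of Gata3 was 1099 bp wide and not a member.

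Other members of the transcription factor list differed less between the genotypes. Myb (chr10:21157998-21161932) was covered over 3448 and 3922 bp in mutant libraries, and 3336 and 3326 bp in wild-type libraries. Gfi1, a repressor needed by early thymocytes (chr5:107723270-107727153), had 3769 and 3737 bp in mutant libraries, and 3558 and 3564 bp in wild-type libraries. Both regions were covered further in both mutant libraries, by small margins. Tox had 2791 and 2835 bp in mutant libraries, and 2407 and 2438 bp in wild-type libraries, which did not overlap. Satb1, a chromatin organiser of thymocytes, had 3129 and 2903 bp in mutant libraries, and 2866 and 2894 bp in wild-type libraries. Its groups were apart by less than the spread within the mutant libraries. At Foxp1 and Zeb1 the genotypes overlapped. Zfp36l2, an RNA-binding protein gene that restrains thymocyte proliferation, went the other way with 2885 and 3259 bp in mutant libraries, and 3423 and 3286 bp in wild-type libraries. There too the groups were apart by less than the spread within the mutant libraries.

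Notch1 was the only member among 20 Notch receptors, cofactors and targets, whose median was 1516 bp. Its region (chr2:26500760-26504360, 3601 bp) was covered over 3402 and 3013 bp in mutant libraries, and 2635 and 3020 bp in wild-type libraries, and the groups overlapped. Another broad region lay within 50 kb (chr2:26549228-26552836), outside protein-coding genes and nearest to Egfl7. It overlapped the long non-coding RNA gene Gm36171. Peaks covered 3609 and 3052 bp of this region in mutant libraries, and 2302 and 2147 bp in wild-type libraries. Those groups did not overlap, in the direction that 29.3% of the broad regions outside genes took. The glycosyltransferase genes Mfng and Lfng and the Notch target Hes1 had regions of 2875, 2695 and 2613 bp, under the limit.

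Of 25 genes of pre-TCR and TCR signalling, Cd3d and Cd3e, invariant chains of the receptor complex, had broad regions. Cd3d had 2663 and 2707 bp under peaks in mutant libraries, and 1692 and 1802 bp in wild-type libraries. Cd3e had 2409 and 2900 bp in mutant libraries, and 1968 and 2360 bp in wild-type libraries. Neither overlapped between genotypes, though at Cd3e only by a narrow gap. Their neighbour Cd3g, at 2926 bp, and the signalling genes Plcg1, Lcp2 and Lat, at 2956, 2945 and 2907 bp, fell just short of the limit.

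Among the cytokine, homing and egress receptors, whose median was 1580 bp, Cxcr4 was a member. Cxcr4, a chemokine receptor of early thymocytes, had 2957 and 3015 bp in mutant libraries, and 2723 and 2735 bp in wild-type libraries, without overlap.

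Over the 6 T-cell lists 13 of 115 autosomal genes (11.3%) were members, beside 1.27% of all genes. Higher shares were found in the lists of cell cycle and survival (18.8%), immediate-early and stress genes (25%) and chromatin regulators (18.2%). A share above that of all genes was thus not particular to the T-cell lists. The count of 13 fell to 8 without mutant library 1 and likewise to 8 without mutant library 2. The counts were 0 of 12 genes of antigen receptor recombination and 0 of 15 late thymocyte genes, with medians of 1356 and 1461 bp. They were also 0 of 45 autosomal markers of B, myeloid, erythroid, NK, thymic stroma and progenitor cells and 0 of 10 autosomal housekeeping genes. Beside a share of 1.27% over all genes, counts of 0 in lists of these sizes are near the background, and nothing is read from them.

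**Figure D2:**
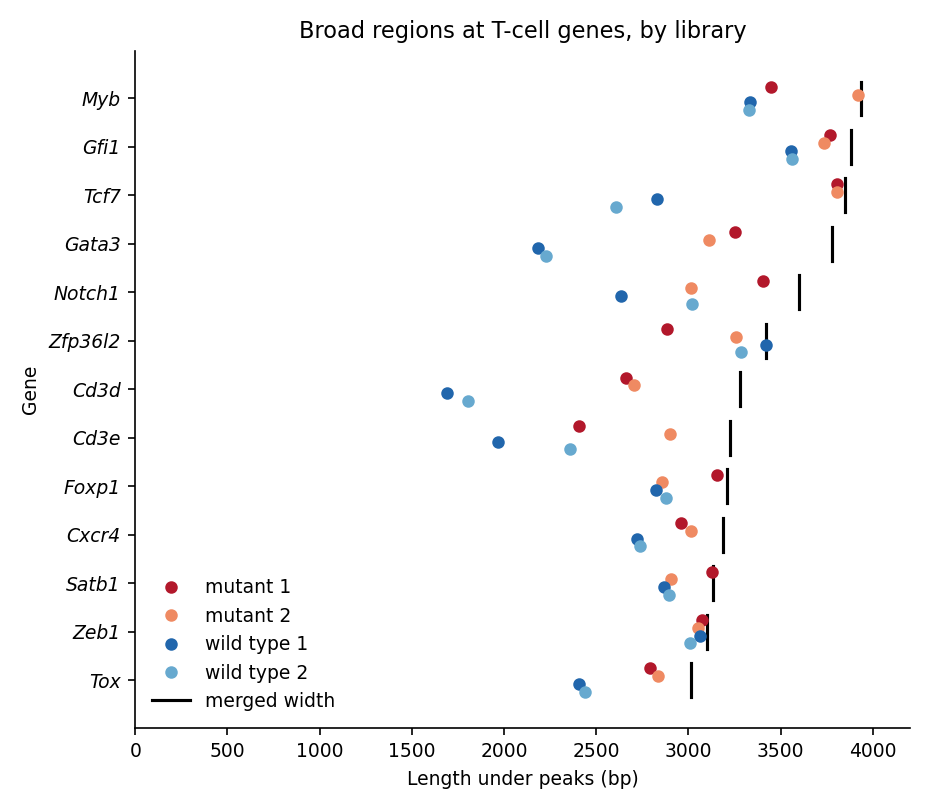
Length under peaks (bp, x axis) in each library at the broad regions of T-cell list genes (y axis), with mutant libraries above wild-type libraries and a black mark at the merged width. Tcf7, Cd3d and Gata3 show the widest separation of the genotypes among the genes plotted, and Notch1, Foxp1 and Zeb1 overlap.

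Members of the lists on growth and early response included wider regions than those of the T-cell lists. In cell cycle and survival, 3 of 16 genes (18.8%) had broad regions, and in immediate-early and stress genes 4 of 16 (25%). The share of all genes was 1.27%. Ccnd2, a D-type cyclin, had 4459 and 4275 bp in mutant libraries, and 3791 and 3799 bp in wild-type libraries. Junb, an AP-1 subunit with the widest gene-end region of any list (5144 bp), had 4260 and 4611 bp in mutant libraries, and 3977 and 3598 bp in wild-type libraries. Both were covered further in the mutant libraries. Jun, another AP-1 subunit, had 3446 and 3413 bp in mutant libraries, and 3867 and 4117 bp in wild-type libraries. The region of Hspa8, a constitutive heat-shock protein, overlapped no gene and lay 0.941 kb from an end of Hspa8. Its fold enrichment was low, at 1.56 and 1.61 in mutant lists, and 1.75 and 1.74 in wild-type lists. It had 3278 and 3212 bp in mutant libraries, and 3767 and 3609 bp in wild-type libraries. Jun and the region beside Hspa8 were thus covered further in wild type. Among 22 chromatin regulators, Kmt2a, Hdac7, Ctcf and Kdm6b were members by their ends (18.2%) and Arid1a by a start. Hdac7, a histone deacetylase of thymocytes, had 3074 and 3138 bp in mutant libraries, and 2330 and 2500 bp in wild-type libraries.

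Broad regions also lay inside genes of T cells, away from their ends (these were chosen after their values were seen). Inside Etv6, an ETS-family repressor, peaks covered 2758 and 2671 bp in mutant libraries, and 2048 and 1780 bp in wild-type libraries. The region in Etv6 was covered further in the mutant libraries, without overlap, as were 45.4% of the broad regions inside genes. Inside Fyb, an adaptor protein gene of T cells (chr15:6527961-6534215), they covered 6255 and 5669 bp in mutant libraries, and 5703 and 5737 bp in wild-type libraries, and the groups overlapped. A region outside genes lay 112 kb from the end of Ccnd2 (chr6:127263736-127267108). It was covered over 3336 and 3125 bp in mutant libraries, and 3081 and 2825 bp in wild-type libraries, the same direction as at Ccnd2 itself.

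Genes of other tissues' development were members as well, among them transcription factor genes that thymocytes are not known for (also chosen after their values were seen). Peaks at Sox21, a neural factor, covered 2920 and 2991 bp in mutant libraries, and 2890 and 2954 bp in wild-type libraries. At Nkx3-2, a skeletal factor, they covered 2775 and 3261 bp in mutant libraries, and 2813 and 3230 bp in wild-type libraries. At Insm1, a neuroendocrine factor, they covered 3210 and 3017 bp in mutant libraries, and 3302 and 2965 bp in wild-type libraries. The genotypes overlapped at all 3, as they did at 34.9% of all broad regions, and nothing is read from it.

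The loci at the centre of the study were not broad. The region at N-Me was 1649 bp wide and was covered over 1237 and 1231 bp in mutant libraries, and 1185 and 1367 bp in wild-type libraries. The region at Myc spanned 1880 bp, with 1880 and 1648 bp in mutant libraries, and 1624 and 1586 bp in wild-type libraries. N-Me overlapped between genotypes. Myc did not, but its groups were apart by less than the spread within the mutant libraries. Of all regions of 1 to 2 kb, 52.0% were likewise covered further in both mutant libraries. Bcl11b, a T-lineage commitment factor, had a region of 1751 bp.

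On average over all broad regions, peaks of the mutant libraries covered more of a region and were fewer. The mean length under peaks per region was 3299 and 3260 bp in the mutant libraries, and 3014 and 3126 bp in the wild-type libraries. The mutant mean was 3280 ± 27.4 bp and the wild-type mean 3070 ± 79.5 bp (SD, n = 2 each), a difference of 210 bp (exact two-sided permutation p = 0.333, the smallest that 2 against 2 libraries allow). A region held 1.30 ± 0.0035 peaks in mutant libraries and 1.91 ± 0.064 in wild-type libraries (SD, n = 2 each; exact permutation p = 0.333). A single peak made up 299 and 302 regions in the mutant libraries (73.5% and 74.2%), and 155 and 168 in the wild-type libraries (38.1% and 41.3%). Peak lists hold no read counts, so depth is unknown, and a longer peak from more cells cannot be told apart from one that is more open in each cell. Mutant lists also left no gap between peaks shorter than 293 and 349 bp, against 257 and 261 bp in wild-type lists. With a common joining gap and minimum length the differences were 117 bp and −0.30 peaks, in the same direction.

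**Figure D3:**
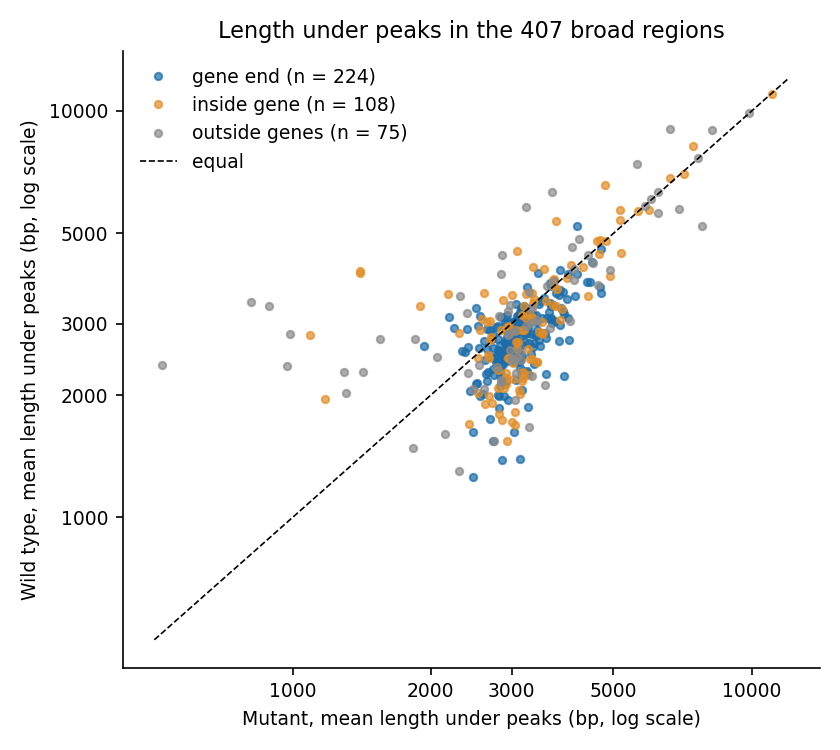
Mean length under peaks in the mutant libraries against that in the wild-type libraries (y axis; both in bp on log scales), 1 point for each of the 407 broad regions, with the line of equality and colours for the place of the region. More points lie on the mutant side of the line, with 208 regions longer in both mutant libraries and 57 in both wild-type libraries, and the points far on the wild-type side are outside or inside genes.

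Counted region by region, 208 (51.1%) were covered further in both mutant than in both wild-type libraries, beside 38.7% of all regions found in all 4 libraries. The reverse held for 57 (14.0%), beside 19.9%, and the genotypes overlapped at 142 (34.9%). With the common joining gap the counts were 200 (39.2%) and 95 (18.6%) of 510 broad regions, beside 36.7% and 20.9% of all regions, which is close to the background. The regions of 2 to 3 kb leaned further still, with 58.2% and 9.98%. The lean was therefore not particular to broad regions. Merged width is the union of both genotypes' peaks, so these lengths are not independent of how the members were chosen.

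This count varied with the place of the region. At gene ends 137 of 224 (61.2%) were covered further in the mutant libraries and 19 (8.48%) in the wild-type libraries, inside genes 49 (45.4%) and 21 (19.4%) of 108, and outside genes 22 (29.3%) and 17 (22.7%) of 75. The mean difference was 337 bp at gene ends and 153 bp inside genes, with exact permutation p = 0.333 for each. Outside genes it was −89.9 bp (exact permutation p = 1), with 3541 and 3410 bp in mutant libraries, and 3361 and 3770 bp in wild-type libraries 1 and 2. Regions of 2 to 3 kb outside genes did not share this, with 64.0% further in mutant and 10.2% in wild type. With the common joining gap the counts were 42.8% and 14.8% at gene ends, 42.8% and 19.6% inside genes, and 22.5% and 29.2% outside genes. Outside genes the larger share then lay with wild type.

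**Figure D4:**
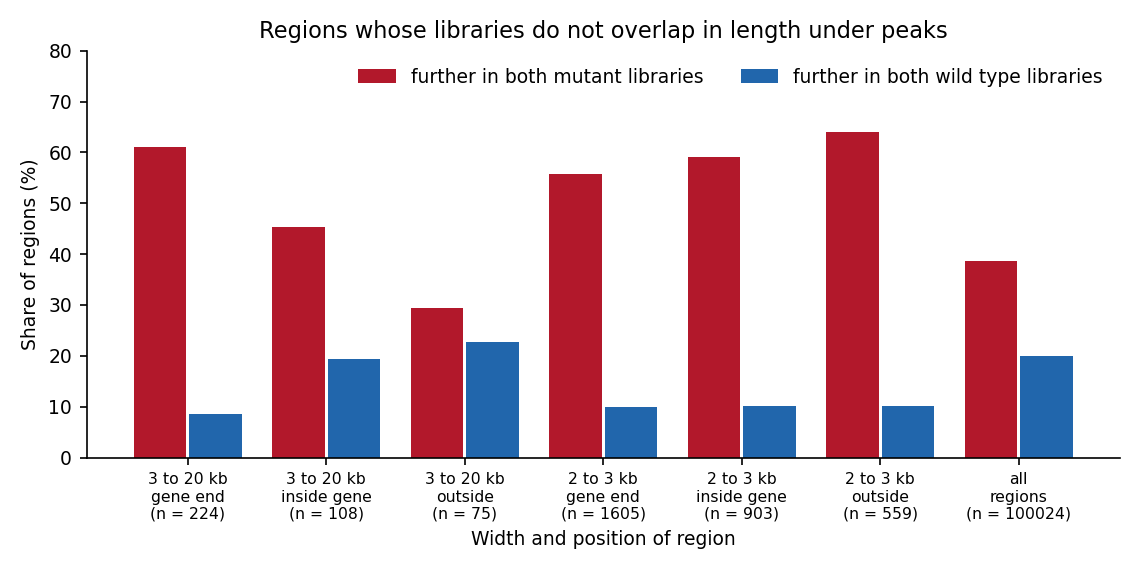
Percent of regions (y axis, bars) covered further in both mutant libraries and in both wild-type libraries, by width and place (x axis) and for all regions found in all 4 libraries. The mutant share was 61.2% at gene ends, 45.4% inside genes and 29.3% outside genes, beside 38.7% of all regions.

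The widest regions showed no such lean. At 3 to 4 kb, 180 of 320 were covered further in mutant and 38 in wild type, with a mean difference of 295 bp. At 4 to 20 kb the counts were 28 and 19 of 87, and the mean difference was −105 bp. The 26 gene-end regions of that width still stood at 19 and 3. Among the largest differences towards mutant were those near Gm45988 (2587 bp), at Pcdh7 (1680 bp), near Gm46320 (1602 bp) and at Atp8b4 (1473 bp). Towards wild type they were near Lama2 (−2621 bp), near Scaf8 (−2594 bp), in Ank2 (−2587 bp), near Api5 (−2419 bp) and near 1700008P02Rik (−2383 bp), none at a gene end. The region near Api5 was wide through wild-type library 2 alone (4460 bp). It had 2158 bp in wild-type library 1, and 220 and 1560 bp in the mutant libraries.

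A few regions were wide through 1 library. In 9 of 407 (2.21%), against 17 of 3067 regions of 2 to 3 kb (0.554%), 1 library was covered over at least 2 times the length of every other. Wild-type library 2 was the long one in 7 of them. None of the 9 was at a gene end, 3 lay inside genes and 6 outside. In Ccdc91 (chr6:147550248-147554556) the peaks covered 1172 and 1014 bp in mutant libraries, and 1319 and 4309 bp in wild-type libraries. Nearest to Gm21119 (chr8:20660716-20666500) they covered 1216 and 407 bp in mutant libraries, and 975 and 5785 bp in wild-type libraries. At both no base was under a peak of all 4 lists. Without wild-type library 2, 372 broad regions remained and the mean difference was 302 bp. Without wild-type library 1, 385 remained and the mean difference was 147 bp.

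Much of each broad region was shared by all libraries. The median region had 72.0% of its bases under a peak of all 4 lists at once, 74.6% at gene ends, 69.7% inside genes and 58.2% outside genes. Still, 60 regions had under 50%, and 90 had at least 3000 bp in common. An unbroken run of at least 3000 bp in all 4 was found in 64 regions, of which 26 were at gene ends, 23 inside genes and 15 outside. The longest lay in Ttc34 (10709 bp) and near Galr1 (9820 bp). At gene ends the longest were at Patz1, a zinc-finger factor of thymocytes (3937 bp), Cdk6, the partner of D-type cyclins (3611 bp), and Ptma (3603 bp). In single libraries, 256 and 252 regions had 3000 bp or more under peaks in mutant, and 157 and 178 in wild type.

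Broad regions were wide rather than strong by the authors' fold enrichment, which averages signal over background along a peak. Its median was 2.80 and 2.89 in the mutant lists, and 3.20 and 3.24 in the wild-type lists. At 2 to 3 kb the medians were 3.57 and 3.69 in mutant, and 4.12 and 3.99 in wild type. At 1 to 2 kb they were 4.54 and 4.65 in mutant, and 5.30 and 4.93 in wild type. Each value belongs to its own list and was not tested between genotypes. In 15 broad regions the fold reached 5 in all 4 lists, and 1 of them was at a gene end (4933440N22Rik), 7 inside genes and 7 outside. The highest was nearest to Gm2244 (chr14:19415713-19419634), with 14.3 and 14.4 in mutant, and 16.8 and 16.0 in wild type. Peaks there covered 3703 and 3728 bp in mutant libraries, and 3706 and 3920 bp in wild-type libraries, and no other region of all 4 libraries lay within 50 kb.

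**Figure D5:**
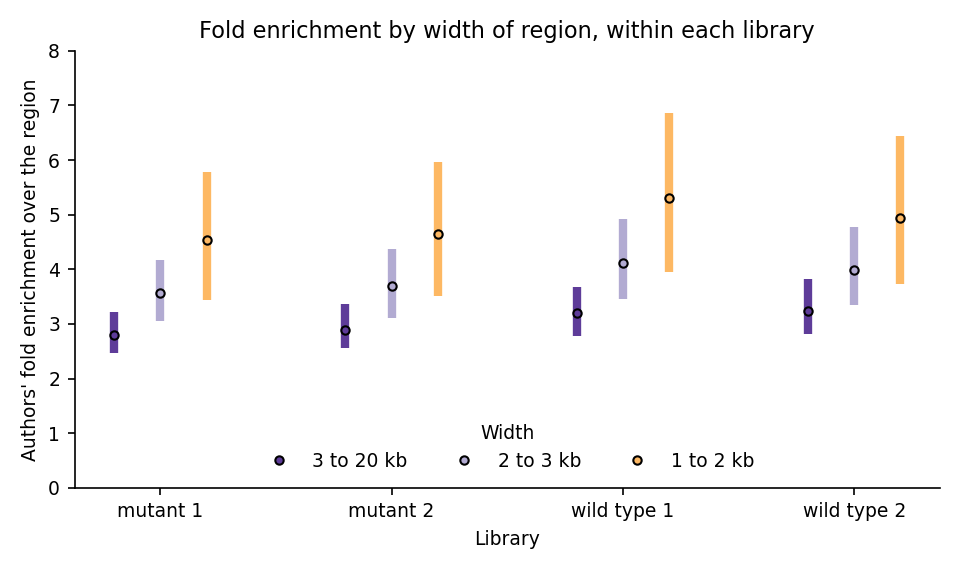
Fold enrichment as deposited (y axis) by library (x axis) and width class, with mutant libraries left of wild-type libraries. Points are medians and bars run between the quartiles. Broad regions had medians of 2.80 and 2.89 in mutant and 3.20 and 3.24 in wild type, under those of narrower regions in the same list.

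Most broad regions stood among other open regions. The median number of other regions of all 4 libraries within 50 kb was 12 (quartiles 7 and 15), against 11 for regions of 2 to 3 kb and 10 for all. Gene-end and inside-gene regions had a median of 12 each, and regions outside genes 6. No neighbour was found for 22 broad regions (5.41%), against 2.06% of all. Of these 22, 15 were among the 75 outside genes (20%), against 2.86% of regions of 2 to 3 kb outside genes.

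Some broad regions were neighbours of each other. For 43, another broad region lay within 50 kb. These included Cd3d with Cd3e, the 2 at Kdm6b, Notch1 with the region nearest to Egfl7, 3 around Zfp36l2, 2 at Icam1, and 3 over the replication-dependent histone genes of chromosome 3 (H2ac18 to H2ac21 and H3c14 and H3c15). By chromosome, chromosome 17 had 35 broad regions, or 7.0 per 1000 regions of all 4 libraries, and chromosome 16 had 6, or 1.67 per 1000.

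Another group lay at the start of the assembled sequence of mouse chromosomes, next to the centromere. Starting below 3.25 Mb, a limit set after these places were seen, were 10 broad regions (2.46%), against 3 of 3067 regions of 2 to 3 kb (0.0978%) and 134 of 100024 overall (0.134%). They lay on chromosomes 4 (4 regions), 17 (3 regions), 10, 16 and 18, all outside genes. The region at chr10:3109536-3117318 was covered over 7754 and 7561 bp in mutant libraries, and 7713 and 7589 bp in wild-type libraries, with folds of 6.92 and 7.08 in mutant and 8.54 and 8.80 in wild type. The genotypes overlapped at 8 of the 10, beside 48% of broad regions outside genes and 41.4% of all regions found in all 4 libraries. Nothing is read from this count of 10 regions.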

How the data were processed

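ATAC-seq peak lists of 4 DN3 libraries were used, 2 per genotype, grouped by the sample titles. MACS2 2.1.1, Bowtie2 2.3.3.1, cutadapt 1.16 and SAMtools 1.7 are named, with build mm10 (GRCm38), per the submitters' processing notes. Settings, including how reads were filtered or shifted, were not given in the sources used here. Each library had its own deposited list of broad peaks, so peaks were not called on pooled samples. In the deposited lists each peak has a score (not used here), a fold enrichment that is a ratio of signal to background made by the authors' caller, and −log10 p and −log10 q values, of which q served as a filter in an alternative.

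Shortest peaks were 73 and 87 bp in the mutant lists, against 64 and 65 bp in wild-type ones, and a list's smallest gap between peaks was 293 and 349 bp, and 257 and 261 bp, in the same order. The common-gap alternative joined and filtered all lists by the largest of these. The covered length of a region is the number of its bases under peaks of a library. A region was counted as covered further in a genotype when both its libraries exceeded both of the other genotype. Fold per region is the length-weighted mean over a library's peaks in it. Chromosomes 1 to 19 were used, which left out 2.42% and 2.28% of mutant peaks, and 2.17% and 2.26% of wild-type peaks.

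Gene ends came from a RefSeq table of GRCm38.p6, starts and sequences from its promoters. Regions are named by protein-coding genes with an end within 1 kb, else by the gene they lie in, else by the nearest end. The widest regions, list members, largest differences, edges of the limit and fixed loci were named by rule, and some regions that met it are not reported here. Symbols matched all 228 genes of 16 lists. The members and lists were chosen with earlier results of these data known. Groups were compared by exact permutation over libraries. The code was tested on simulated lists. Python 3.11.15, numpy 2.4.6, pandas 2.3.3, scipy 1.17.1 and matplotlib 3.10.9 were used. Replicate numbers did not pair the libraries, since nothing in the labels says that a number marks a shared animal or day.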

Additional observations from a re-analysis of the deposited data

How the results depend on the processing

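Of 115 recomputed values, 90 kept their direction and stayed near the value reported. A minimum width of 2 kb gave 3474 regions, 1994 covered further in mutant, 363 in wild type and 42 T-cell list genes. A minimum of 4 kb gave 87 regions, 29.9% at gene ends, a mean difference in covered length of −105 bp (exact permutation p = 0.667), 28 regions further in mutant, 19 in wild type, 0 list genes and a median of 9 neighbours. The cause of this change of sign was not tested. Peaks with −log10 q of at least 5 gave 61.4% at gene ends, 36 regions further in wild type and a median of 8 neighbours. The common joining gap gave 95 regions further in wild type. A margin of the largest joining gap left 97 regions further in mutant and 25 in wild type. Requiring 3000 bp under peaks of all 4 lists at once left 90 regions. The gene-end share was 49.1% with the end inside the region, 61.2% within 5 kb and 42.5% by starts inside. A 20 kb window gave a median of 5 neighbours. Alternatives with the margin, the shared 3000 bp, the starts and the paired counts of regions were chosen after seeing the data.

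Leaving out 1 library at a time gave 323 to 385 regions, mean differences of 141 to 302 bp, −0.68 to −0.56 peaks, 180 to 249 regions further in mutant, 62 to 87 in wild type and 8 to 13 list genes. With X and Y there were 427 broad regions and 3 over 20 kb. As a replicate block, same-numbered libraries gave 210 bp and −0.61 peaks (exact permutation p = 0.5, the smallest that 2 pairs allow), with 230 regions further in mutant and 67 in wild type in both pairs. Crossed numbers gave 238 and 73. Differences of replicate 1 minus 2 correlated between genotypes at r = −0.036 over all regions and −0.36 over the broad ones, across regions, which are not independent. Peak lists hold no counts, so depth limits what a missing or short peak can show.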
